A study of Mus musculus with 2 samples.

Results

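The smooth muscle cytoskeleton genes described here are 10 mouse genes that serum response factor (SRF) is known to drive, Srf itself included: Srf, Acta2, Actg2, Tagln, Cnn1, Cald1, Tpm1, Tpm2, Myl9 and Vcl. They were chosen by symbol, with earlier results on the same libraries in view, and all 10 were found among the 23889 gene symbols measured. The choice therefore used the contrast between these libraries, and the levels below are a description and not a test.

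The study examined USP21, a deubiquitinase, in mouse embryonic stem cells (mESCs). RNA sequencing was done on 2 libraries of the E14 mESC line, which the labels trace to a 19/Ola mouse, 1 from cells given control shRNA (genotype "Normal") and 1 from cells given USP21 shRNA (genotype "USP21 knockdown"). Both cultures were kept without feeders on gelatin, in serum medium with leukaemia inhibitory factor (LIF), a cytokine that holds mESCs undifferentiated, and were harvested after 3 days of knockdown. The labels call the shRNA transfected and name neither its sequence nor a second independent shRNA for these libraries. With 1 library per group there is no replicate error, no p-value can be given, and every difference below is between these libraries. In total RNA of a whole culture, more cells that express a gene and more RNA per cell cannot be told apart.

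SRF is a transcription factor that binds a short element called the CArG box, in which a run of A and T bases is flanked by CC and GG. It works with myocardin-related cofactors (Mkl1, Mkl2 and Myocd), which are held in the cytoplasm by monomeric actin and enter the nucleus when actin polymerizes, or with ternary complex factors (Elk1, Elk3 and Elk4), which answer growth factor signals. The first arm is known for the contractile and cytoskeletal genes of smooth muscle, several of which are also used at lower levels by fibroblasts and other cells that form stress fibres.

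The stretches below show CArG boxes upstream of the genes, because the box is the element that SRF binds. They came from RefSeq windows that run from 250 bases before to 50 bases after each gene start on GRCm38.p6, and are written 5′ to 3′ on the strand of the gene. Capitals mark the boxes that match in full and, for Acta2 alone, boxes that differ at 1 base. Vcl and Myl9 each have a box that matches in full, Srf has 2 such boxes, and Acta2 has 2 boxes that each differ from the element at 1 base. The windows of Myl9 and Srf each hold a further box that differs at 1 base, which is not marked. The stretch of Acta2 lies on the minus strand at chr19:34255378-34255477, that of Myl9 on the plus strand at chr2:156775283-156775332, that of Vcl on the plus strand at chr14:20929151-20929200 and that of Srf on the minus strand at chr17:46556195-46556264.
Acta2: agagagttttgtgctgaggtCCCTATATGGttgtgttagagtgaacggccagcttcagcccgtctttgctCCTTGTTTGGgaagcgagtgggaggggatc
Myl9: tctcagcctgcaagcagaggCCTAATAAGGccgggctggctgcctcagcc
Vcl: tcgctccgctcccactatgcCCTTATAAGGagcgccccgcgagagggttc
Srf: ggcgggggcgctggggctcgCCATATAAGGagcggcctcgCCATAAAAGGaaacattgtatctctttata

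Windows were found for 8 of the 10 genes, Tagln and Actg2 being those without a match. The full box (CC, then 6 bases of A or T, then GG, searched on both strands) was present for 3 of these 8 genes, Myl9, Vcl and Srf. Across all 27025 genes with a window, 1.81% had it. With 1 mismatch allowed, 6 of the 8 genes had a box in a window, adding Acta2, Tpm1 and Cald1, against 23.8% of all genes. Only 5 genes (0.0185%) had more than 1 full box in a single window, and Srf was among them. No box was found in the windows of Cnn1 and Tpm2, which says only that these letters are not within this distance. The genes were listed as known SRF targets, so their shares with a box are not independent of that choice. A match is a description of the sequence and not evidence of binding in these cells.

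**Figure D1:**
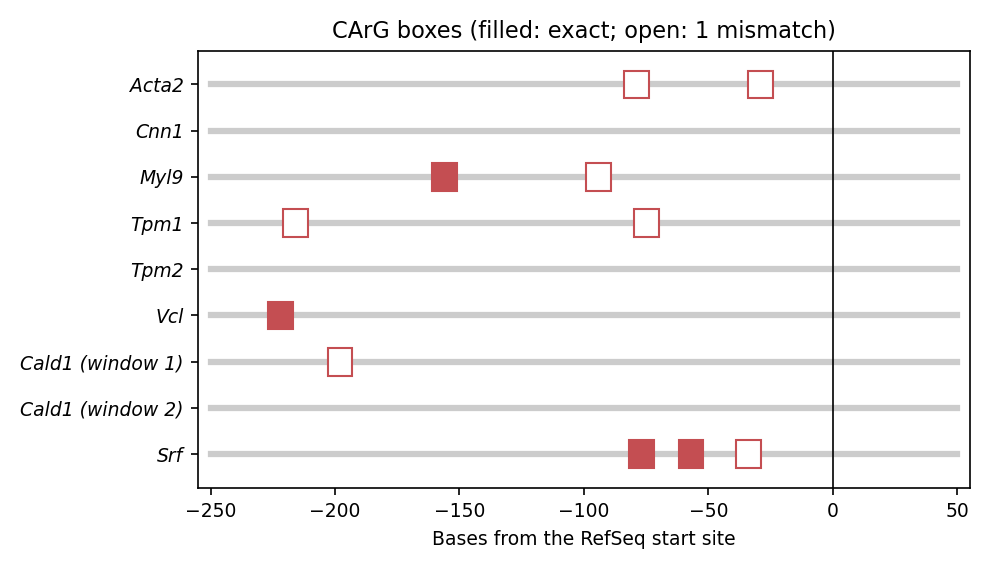
CArG boxes in the promoter windows of the 8 genes with a window, in bases from the RefSeq start on the horizontal axis, 1 line per window (Cald1 has 2); filled boxes match in full and open boxes have 1 mismatch. Full boxes begin 161 bases upstream of Myl9, 227 upstream of Vcl, and 82 and 62 upstream of Srf, and the lines of Cnn1 and Tpm2 are empty.

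The targeted gene Usp21 had 26.2 FPKM (fragments scaled to transcript length and to the size of the library) in the control library and 3.49 FPKM in the USP21 shRNA library, a log2 ratio of −2.87, as the labels say. All ratios are of USP21 shRNA over control, after 0.1 FPKM was added to both values. Of all genes, 11927 had at least 1 FPKM in 1 or both libraries, and their median log2 ratio was 0.003. The scaling moves this centre, since all genes together had 613617 FPKM in the control and 543206 FPKM with USP21 shRNA, and bringing the sums to the same total moves their median log2 ratio to 0.18, with smaller shifts for genes near the added constant. Longer transcripts also had higher ratios (Spearman correlation of 0.33 across 11854 genes, which share the 2 libraries and are not replicates), with a median of −0.17 among the shortest 20% of transcripts and 0.18 among the longest 20%. Among 1439 genes detected in both libraries at under 0.1 FPKM, the commonest log2 ratio of control over USP21 shRNA was −0.30. If such values stem from equal numbers of fragments, the control library was about 1.23 times as deep. The number of fragments behind a value is not known.

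The genes spanned a wide range of levels, which FPKM allows to be compared between genes. In the control library, Tpm1, Vcl, Cald1 and Srf lay between 18.2 and 26.5 FPKM. Tpm2 had 6.17 FPKM, Myl9 and Tagln had 2.25 and 1.41 FPKM, and Cnn1, Acta2 and Actg2 had 0.258, 0.177 and 0.148 FPKM. The USP21 shRNA library kept Tpm1 and Vcl at the top and Cnn1 and Actg2 at the bottom, with Tagln above Tpm2. Without replicates, no pair of neighbours in either order can be said to differ.

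**Figure D2:**
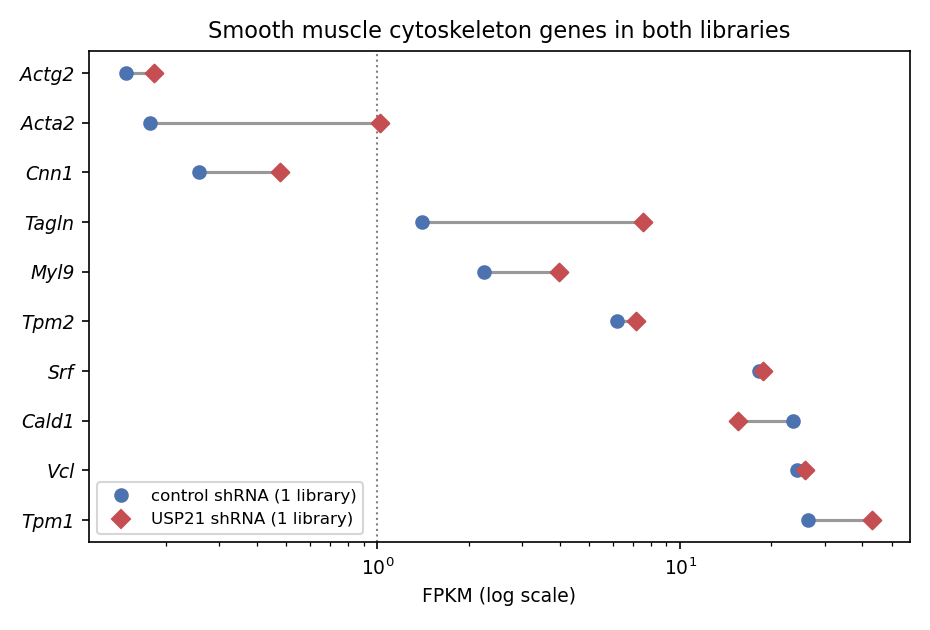
FPKM of the 10 genes on a log axis, with a circle for the control library and a diamond for the USP21 shRNA library, joined by a line; the dotted line is 1 FPKM. The widest gaps are those of Tagln (1.41 and 7.54 FPKM) and Acta2 (0.177 and 1.02 FPKM), and the diamond lies to the left of the circle for Cald1 alone (23.6 and 15.5 FPKM).

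Srf, the transcription factor itself, lies on chr17:46548329-46556175 on the minus strand (positions of genes are from GENCODE M21 on GRCm38). It had 18.2 FPKM in the control and 18.8 FPKM with USP21 shRNA. Both libraries held nearly the same level, at a log2 ratio of 0.05. Srf carries 2 full boxes in its own window, and binding to them was not tested. Its cofactors differed more. Mkl2 had 3.81 and 5.7 FPKM (log2 ratio 0.57) and Mkl1 had 10.1 and 12.5 FPKM (0.30), in control and knockdown in this order. Myocd, the cofactor known from heart and smooth muscle, was at 0.0564 and 0.0619 FPKM. The ternary complex factor Elk3 had 3.62 and 5.22 FPKM (0.52), Elk4 had 4.07 and 4.69 FPKM (0.20) and Elk1 had 10.7 and 9.44 FPKM (−0.18). None of the 5 cofactors with at least 1 FPKM differed 1.5-fold, and 4 of these 5 were higher with USP21 shRNA. With equal sums, Mkl2 (0.74) and Elk3 (0.69) passed 1.5-fold, while corrected for the trend with transcript length they were lower, at 0.34 and 0.46.

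Acta2 encodes smooth muscle alpha actin, the actin of contractile filaments, at chr19:34241090-34255590 on the minus strand. It had 0.177 FPKM in the control and 1.02 FPKM with USP21 shRNA, which is 5.78 times as much and a log2 ratio of 2.02. It passed the minimum of 1 FPKM only through the library where it was high, and its promoter is the one shown above with 2 boxes of 1 mismatch each. At so low a level the ratio depends on the added constant: with 1 FPKM added in place of 0.1, the log2 ratio of Acta2 was 0.78 and no longer 2-fold.

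Actg2, which encodes the gamma actin of enteric smooth muscle (chr6:83512905-83536265, minus strand), had 0.148 and 0.184 FPKM. At a log2 ratio of 0.19, it stayed near the bottom in both libraries and far below the minimum of 1 FPKM.

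Tagln encodes transgelin (SM22), an actin-binding protein of the calponin family and an early marker of smooth muscle, at chr9:45929619-45936058 on the minus strand. It had 1.41 FPKM in the control and 7.54 FPKM with USP21 shRNA, 5.36 times as much and a log2 ratio of 2.34. With 0.1 FPKM added this was the highest log2 ratio of the 10 genes, though with 0.01 FPKM added Acta2 lay above Tagln (2.47 and 2.41). Tagln ranked 14 from the top of all 11927 genes with at least 1 FPKM, while Acta2 ranked 19. The genes were chosen with these ratios known, so the ranks are a description and not a test. Acta2 reached 1 FPKM only in the USP21 shRNA library. The exons of Tagln overlap genes on the opposite strand, with 1241 of 1988 exon bases shared with the antisense gene Gm48529 and 108 with Pcsk7. Pcsk7 had 5.45 and 5.4 FPKM (log2 ratio −0.01), Gm48529 was not measured here, and whether reads were counted by strand is not given in the sources used here. The part of the antisense gene in the Tagln values was not tested.

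Cnn1, the smooth muscle calponin (chr9:22099216-22109630, plus strand), binds actin and slows the myosin motor. It had 0.258 and 0.477 FPKM, a log2 ratio of 0.69 at levels under the minimum of 1 FPKM in both libraries.

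Cald1 encodes caldesmon, which ties actin to tropomyosin and myosin, and lies on chr6:34598500-34775473 on the plus strand. It had 23.6 FPKM in the control and 15.5 FPKM with USP21 shRNA, a log2 ratio of −0.61, or −0.43 with equal sums, which is under 1.5-fold. Cald1 was the only gene of the 10 with a lower level in the knockdown library, and the difference of −8.14 FPKM was larger in size than the 6.14 FPKM by which Tagln was higher. Cald1 and Tpm1 each make smooth muscle and non-muscle forms by alternative splicing, and 1 value per symbol does not separate them.

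The tropomyosins wind along the actin filament and govern its access to myosin. Tpm1 (chr9:67022590-67049406, minus strand) had 26.5 FPKM in the control and 43.2 FPKM with USP21 shRNA, a log2 ratio of 0.70. Its gain in level, from a high base, was the largest of the 10 genes in FPKM. Tpm2 (chr4:43514711-43523765, minus strand) had 6.17 and 7.16 FPKM, a log2 ratio of 0.21.

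Myl9 encodes the myosin regulatory light chain of smooth muscle and stress fibres, whose phosphorylation switches contraction on, at chr2:156775420-156781658 on the plus strand. It had 2.25 FPKM in the control and 3.98 FPKM with USP21 shRNA, a log2 ratio of 0.79. Vcl encodes vinculin, which links actin to adhesions, at chr14:20929398-21033676 on the plus strand. It had 24.2 and 25.9 FPKM, a log2 ratio of 0.09, so that these genes with a full box in their windows differed in ratio. Of the 8191 exon bases of Vcl, 2090 are shared with Ap3m1 on the opposite strand, which had 15.8 and 23.4 FPKM (log2 ratio 0.57). The part of Ap3m1 in the values of Vcl was not tested.

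Of the 10 genes, 8 had at least 1 FPKM in 1 or both libraries. Of these, 2 (Tagln and Acta2) were at least 2-fold higher with USP21 shRNA, as were 2.3% of all genes at that minimum, and 0 were 2-fold lower, as were 2.03% of all genes. At 1.5-fold, 4 were higher (Tagln, Acta2, Myl9 and Tpm1), beside 7.77% of all genes, and 1 was lower (Cald1), beside 6.46%. Since the genes were chosen with these ratios known, nothing is read from these shares. Large ratios were more common at low levels: 2-fold higher genes made up 7.29% of those between 0.1 and 1 FPKM in the higher library, 4.04% of those between 1 and 10 FPKM, where Tagln, Acta2, Myl9 and Tpm2 lie, and 1.04% of those between 10 and 100 FPKM, where Tpm1, Vcl, Cald1 and Srf lie. The range that held the middle 90% of genes ran from −0.84 to 0.92 at 1 to 10 FPKM, with Tagln and Acta2 above it and Myl9 and Tpm2 inside it. At 10 to 100 FPKM it ran from −0.54 to 0.58, with Tpm1 above it, Cald1 below it and Vcl and Srf inside it.

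**Figure D3:**
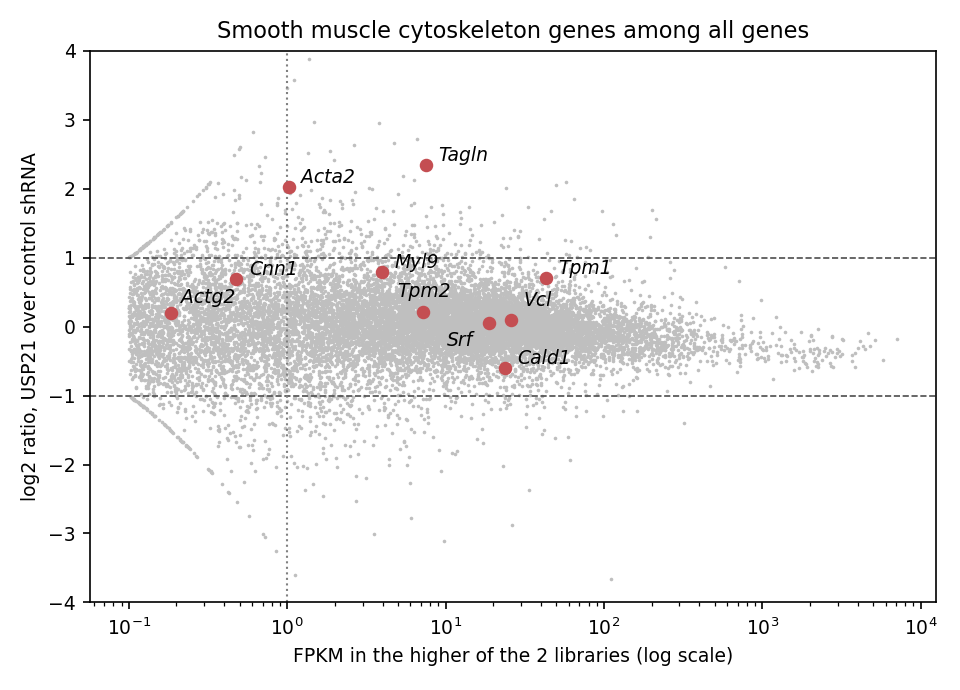
Log2 ratio of USP21 shRNA over control against the FPKM of the higher library (log axis) for the 15316 genes with at least 0.1 FPKM in 1 or both libraries, the 10 genes in red; dashed lines are 2-fold, the dotted line is 1 FPKM, and 4 genes with log2 ratios beyond 4 in size fall outside the axis. Tagln (2.34) and Acta2 (2.02) lie above most genes of their level, and Srf (0.05) and Vcl (0.09) lie near the centre.

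The ratios differed widely among the genes. Over all 10 genes the median log2 ratio was 0.45, and over the 8 with at least 1 FPKM it was 0.46, beside 0.003 for all genes at that minimum. With a minimum of 5 FPKM the median of the smooth muscle cytoskeleton genes was 0.15. Since they were chosen with these ratios known, nothing is read from the difference to all genes. Summed over the 10 genes, the level was 103 FPKM in the control and 124 FPKM with USP21 shRNA. Without Tagln and Acta2, the sum was 101 and 115 FPKM and the median of the 6 remaining genes with at least 1 FPKM was 0.15. Corrected for the trend with transcript length, the log2 ratio was 2.44 for Tagln, 2.08 for Acta2, 0.96 for Myl9, 0.72 for Tpm1 and −0.69 for Cald1, while that of Vcl was −0.02.

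The relatives of these genes in the same families included cytoplasmic and non-muscle forms at high levels and muscle forms at low levels. The cytoplasmic actins Actb and Actg1 had 2096 and 1973 FPKM in the control and 1828 and 1698 FPKM with USP21 shRNA, at log2 ratios of −0.20 and −0.22. With the sums of both libraries brought to the same total these became −0.02 and −0.04. Against them, Acta2 differed in direction and made up a very small part of the summed actin level (4070 and 3528 FPKM). Acta1, the skeletal muscle actin, had 0.128 and 0.682 FPKM (log2 ratio 1.78), in the same direction as Acta2. Its level was below the minimum of 1 FPKM in both libraries, and it is named here after its values were seen.

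Among the relatives of Tagln and Cnn1, Tagln2 had 231 and 185 FPKM (log2 ratio −0.32) and Tagln3, a neuronal form, had 3.3 and 1.89 FPKM (−0.77). Cnn2 had 23.8 and 35.1 FPKM (0.56) and Cnn3 had 169 and 199 FPKM (0.24). The transgelins other than Tagln were thus lower, and the calponins higher, in the knockdown library, with the direction the same after the sums were made equal. Tropomyosins Tpm3 (250 and 244 FPKM, −0.04) and Tpm4 (38.1 and 25.8 FPKM, −0.56) did not share the higher level of Tpm1, though the ratio of Tpm3 turns positive once the sums are made equal. The non-muscle light chains Myl12a (128 and 131 FPKM, 0.04) and Myl12b (195 and 181 FPKM, −0.11) differed little, and Myl12b too is higher with USP21 shRNA once the sums are made equal. Myl7, the atrial light chain, had 5.72 FPKM in the control and 1.34 FPKM with USP21 shRNA (−2.01), opposite in direction to Myl9.

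**Figure D4:**
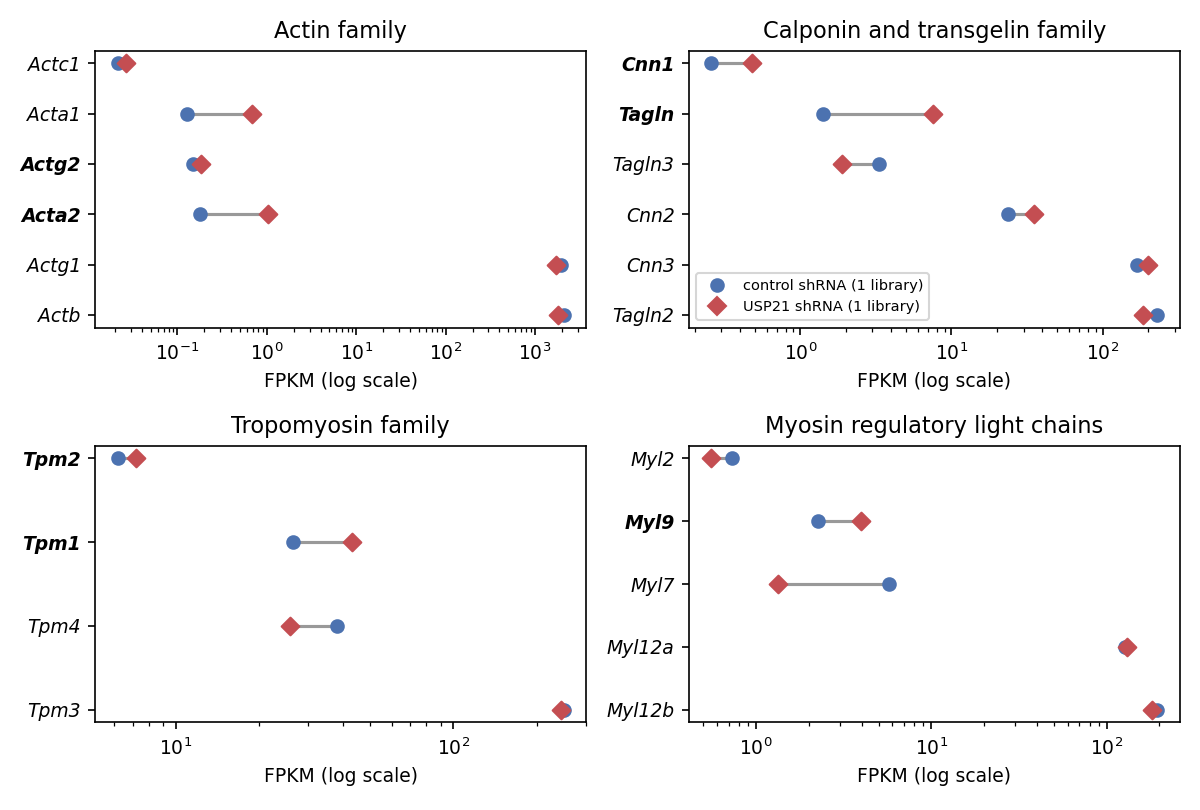
FPKM (log axis, a separate range in each panel) of the actins, the calponins and transgelins, the tropomyosins and the myosin regulatory light chains, with a circle for the control library and a diamond for the USP21 shRNA library. Names of the smooth muscle cytoskeleton genes are in bold, and Myl10 is left out because it is listed at 0 in a library. Acta2 (0.177 and 1.02 FPKM) lies far to the left of Actb (2096 and 1828 FPKM), and Myl7 and Myl9 differ in opposite directions.

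Among 24 other SRF and cofactor targets of the cytoskeleton, 22 had at least 1 FPKM. Of these, 0 differed 2-fold, beside 2.3% higher and 2.03% lower among all genes, so that a count of 0 in a list of this size is near the background. At 1.5-fold, 5 were higher (Thbs1, Lpp, Tgfb1i1, Zyx and Itga5, named after their values were seen), beside 7.77% of all genes, and 1 was lower, beside 6.46%. The median log2 ratio of the 22 was 0.02. Corrected for the trend with transcript length, Lpp (0.40), Itga5 (0.57) and the lower gene, Csrp2 (−0.50), fell under 1.5-fold, while Cnn2 (0.60) passed it. The highest was Thbs1, a secreted matrix glycoprotein, at 0.618 and 1.31 FPKM (0.97, or 1.13 with equal sums, which is past 2-fold). Thbs1 passed the minimum only through the USP21 shRNA library. The lowest was Csrp2, a LIM protein of smooth muscle, at 214 and 138 FPKM (−0.63).

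Of 9 immediate early targets of SRF and the ternary complex factors, 7 had at least 1 FPKM and Fosb, an AP-1 subunit, was 2-fold higher, at 4.07 and 10.6 FPKM (log2 ratio 1.36), beside 2.3% of all genes. Egr1, a zinc finger factor named after its values were seen, had 39.5 and 75.9 FPKM (0.94), and with equal sums it too passed 2-fold (1.12). The lowest of the 7 was Mcl1, a survival factor, at 121 and 123 FPKM (0.02). Among 11 genes of adhesions, where vinculin works, 10 had at least 1 FPKM, 0 differed 2-fold and 2 (Zyx and Tln1) were 1.5-fold higher, beside 2.3%, 2.03% and 7.77% of all genes for 2-fold higher, 2-fold lower and 1.5-fold higher. Their ratios ran from −0.03 for Actn4, an actin cross-linker (193 and 189 FPKM), to 0.66 for Zyx, a LIM protein of stress fibres (11.3 and 17.8 FPKM). Zyx is also counted among the cytoskeletal targets above. Corrected for transcript length, Tln1 was at 0.39, under 1.5-fold.

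**Figure D5:**
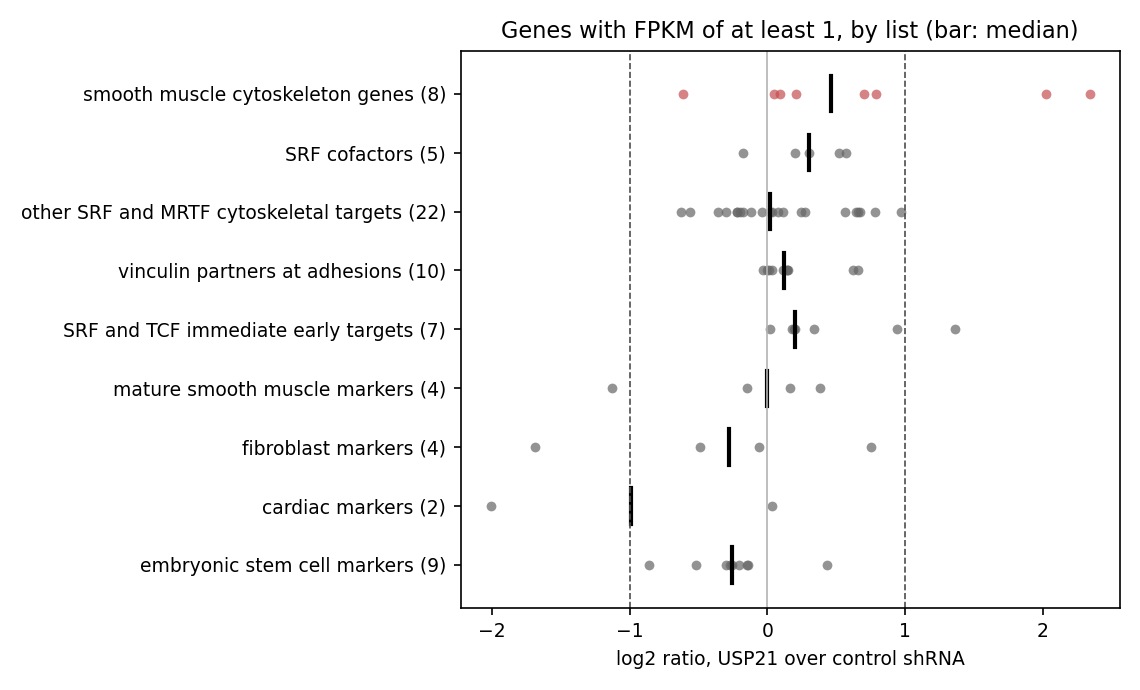
Log2 ratio of USP21 shRNA over control (horizontal axis) of the genes with at least 1 FPKM in each list, 1 point per gene and the number of genes in brackets; the bar is the median and the dashed lines are 2-fold. The median is 0.46 for the smooth muscle cytoskeleton genes, 0.02 for the other SRF and cofactor targets and −0.26 for the embryonic stem cell markers. The lists were chosen with earlier results of these data known, so the medians are a description.

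Markers of cell types that could carry these genes were measured in the same libraries. Of 9 later smooth muscle markers, 4 had at least 1 FPKM and their median log2 ratio was 0.00. Lmod1, a leiomodin, was 2-fold lower at 1.06 and 0.432 FPKM (−1.13), but passed the minimum only through the control library and was under 2-fold with equal sums (−0.98). Des, the muscle intermediate filament, was the highest of the 4 at 9.34 and 12.2 FPKM (0.38). The 5 markers below the minimum went in both directions. Itga8, an integrin subunit, had 0.228 and 0.711 FPKM (1.31), and Synpo2, an actin-binding protein, had 0.215 and 0.367 FPKM (0.57). Myh11, the defining smooth muscle myosin, had 0.0993 and 0.134 FPKM (0.23). Lower were Synm at 0.994 and 0.804 FPKM (−0.27) and Kcnmb1 at 0.0171 and 0.0107 FPKM (−0.08). All 5 are named after their values were seen. At any size, 5 of the 9 markers were higher and 4 lower with USP21 shRNA.

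Of 11 fibroblast markers, 4 had at least 1 FPKM, and the summed level was 197 FPKM in the control and 179 FPKM with USP21 shRNA, most of it from Vim. Thy1 was 2-fold lower at 17.3 and 5.29 FPKM (−1.69), Pdgfra was the highest at 2.48 and 4.22 FPKM (0.75), and Lum was listed at 0 in both libraries. Of 9 cardiac markers, 2 had at least 1 FPKM, and the summed level was 11.2 and 7.08 FPKM. Myl7, described above, carried that difference, while Tnni3, the cardiac troponin I, had 3.5 and 3.57 FPKM (0.03). At any size, 6 of the 9 were higher and 3 lower with USP21 shRNA. Actc1 and Tnnt2 were near 0 in both libraries, and Nppa, a natriuretic peptide, had 0.0633 and 0.264 FPKM. The part of other cell types in the values of Tagln and Acta2 was not tested beyond these levels.

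All 9 mESC markers had at least 1 FPKM, so that the labelled cell type had its defining markers, and their summed level was 4329 FPKM in the control and 3291 FPKM with USP21 shRNA. Of the 9, 8 were lower, with Nanog at 467 and 258 FPKM (−0.86) the lowest and Fgf4 at 54.8 and 74 FPKM (0.43) the highest. With equal sums, Sox2 (0.03) and Klf4 (0.02) turned direction, leaving 6 lower, and the median of the 9 moved from −0.26 to −0.08. Nanog was lower in the library in which Tagln and Acta2 were higher, and a link between them was not tested.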

How the data were processed

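RNA from 2 E14 cultures was sequenced, 1 library per group. The authors deposited FPKM values, 1 per gene symbol and library. The submitters' processing notes name CASAVA 1.8.2, TopHat2 2.0.14, Cufflinks 2.2.1 and mm9, without roles. The annotation and the strand setting are not given in the sources used here. Counts were not analysed here, so no count test was made.

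For each gene, 0.1 was added to the deposited FPKM values and the log2 ratio of the USP21 shRNA library over the control library was taken in Python 3.11.15 (pandas 2.3.3, numpy 2.4.6, scipy 1.17.1, statsmodels 0.14.6, matplotlib 3.10.9). A gene was called at a 2-fold ratio with at least 1 FPKM in either library, and the procedure was tested on simulated data. The transcript length correction used a lowess curve with a span of 0.3. Gene positions came from GENCODE M21 and promoter windows from RefSeq, both on GRCm38 and not on the mm9 build of the values. Members and lists were chosen with earlier results of these data known. Named genes are all 10 smooth muscle cytoskeleton genes, Usp21, the SRF cofactors, family relatives with at least 1 FPKM, and of each other list the genes called 2-fold, the highest and the lowest. Genes outside this rule that are named include markers (Myh11, Itga8, Synpo2, Synm, Kcnmb1, Actc1, Tnnt2, Nppa, Lum, Vim, Sox2, Klf4), Pcsk7, Gm48529 and Ap3m1 for their overlap, Myl10, Acta1, Egr1, Tln1, Lpp, Tgfb1i1 and Itga5. The alternatives were other added constants, other minimum levels, other folds, equal sums and the length correction. The result of 1 further gene list is not reported here.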

Additional observations from a re-analysis of the deposited data

How the results depend on the processing

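The alternatives changed the counts and not the direction of any ratio of the 10 smooth muscle cytoskeleton genes that was 1.5-fold or more. The count of these genes 2-fold higher was 2, and it was 1 with a constant of 1 FPKM or a minimum of 5 FPKM (Acta2 was lost in both) and 4 at 1.5-fold; the count 2-fold lower was 0, and 1 at 1.5-fold. Over 5 alternatives for the constant, the scaling and the length correction, the log2 ratio of Tagln ran from 1.83 to 2.51, that of Acta2 from 0.78 to 2.47, that of Cald1 from −0.69 to −0.43 and that of Vcl from −0.02 (length correction) to 0.27. Over all genes, 274 were higher and 242 lower. These became 108 and 100 with a constant of 1 FPKM, 451 and 148 with equal sums, 521 and 459 with a minimum of 0.1 FPKM or with none, 119 and 97 with a minimum of 5 FPKM, 927 and 771 at 1.5-fold, and 61 and 58 at 3-fold. Of the 56 recomputed counts and medians of the 10 genes and of all genes, 18 changed by more than 1.5-fold. Of 414 other values recomputed, 382 stayed within 1.5-fold, many of them counts of 0 that stayed 0. The number of fragments behind each value is not known, so ratios below 1 FPKM have no stated precision. No library could be left out with 1 per group. No paired analysis was possible because the labels give no replicate numbers and each group is 1 library.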

Other observations

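Beyond the smooth muscle cytoskeleton genes, 145 genes with at least 1 FPKM had a full CArG box in the RefSeq window around their start. Of these, 0 were 2-fold higher with USP21 shRNA, beside 1.99% of the 9586 genes with a window, and 5 (3.45%) were 2-fold lower, beside 1.9%. The 5 were Myl7 at 5.72 and 1.34 FPKM (log2 ratio −2.01), Cited1 at 5.11 and 1.97 FPKM (−1.33), Hist1h2bb at 1.72 and 0.673 FPKM (−1.24), Myh13 at 1.62 and 0.692 FPKM (−1.12) and Rap1gap2 at 1.88 and 0.86 FPKM (−1.04), named after their values were seen. Hist1h2bb, Myh13 and Rap1gap2 passed the minimum only through the control library. All 5 lie at 1 to 10 FPKM in the higher library, a range where 3.57% of all genes were 2-fold lower. The median log2 ratio of the 145 was 0.018, beside 0.005 for all genes with a window. With 1 library per group, these counts have no test against replicate error.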
